A study of Mus musculus with 6 samples.

Results

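The keratins are the intermediate filament proteins of epithelial cells, and their mRNAs were followed here in cortical thymic epithelial cells (cTECs) that lack or carry Psmb11. Members were all genes whose mouse symbol is Krt followed by a number and at most 1 letter, with keratin-associated proteins left out. This gave 54 genes of the 50600 in the files, matched by Ensembl identifier. Poly(A) RNA was profiled in 6 libraries of primary cTECs; the mice were 8 to 10 weeks old. The 3 KO libraries, replicates A to C, came from B6.B6CB-Psmb11tm1Smta (Psmb11-/-) mice, and the 3 WT libraries, replicates A to C, from B6.B6CB-Psmb11tm1Smta (Psmb11+/+) mice. Psmb11 encodes a catalytic subunit of the thymoproteasome, which cTECs make, and the labels name no Cre driver or other limit of the deletion to a cell type. The labels do not say whether replicates came from separate mice or pools, so each p-value measures the spread between these libraries only.

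Keratin filaments are built from pairs of 1 type I and 1 type II chain. Simple epithelia use mainly Krt8 with Krt18, the basal layer of stratified epithelia uses Krt5 with Krt14, and suprabasal layers replace these with differentiated keratins such as Krt1 with Krt10 in skin or Krt4 with Krt13 in mucosa. In the thymus, Krt8 and Krt18 are the usual stain for cortex and Krt5 and Krt14 for medulla, while some medullary cells turn on genes of cornifying keratinocytes. The members were grouped into simple, basal, stress and wound, differentiated, inner root sheath, hair and nail, and other keratins.

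Libraries held 34265035 to 36713388 gene counts in KO and 34660349 to 39224292 in WT. Psmb11 had 36 to 67 counts in KO libraries and 8293 to 10027 in WT libraries. The labelled cell type was checked against 10 cTEC markers outside the family, Psmb11 among them, and all were detected in both genotypes. All 10 were called lower in KO (edgeR quasi-likelihood test), where 11.1% of all genes tested were called lower. The fall of Psmb11, the deleted gene, was set by the genotype and says nothing about the cell type. Levels are given below as counts scaled for library size (CPM). The 10 markers summed to 2859 to 3534 CPM in KO libraries and 5579 to 5873 CPM in WT libraries. Psmb11 is part of these sums, with a mean of 1.33 CPM in KO and 252 CPM in WT. In bulk RNA, fewer cells of a type and less RNA per cell cannot be told apart.

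Keratins changed in both directions: Krt8 and Krt18 fell, the 3 basal keratins rose, and the other simple keratins did not fall with Krt8 and Krt18. Several keratins of low level had larger fold changes upward. Of 54 members, 28 passed the filter on low counts and were tested with the edgeR quasi-likelihood test. The threshold for a call was 0.05 for p adjusted by the Benjamini-Hochberg method over the 16938 genes in the fit. Of the 28, 14 were called, beside 23.6% of all genes tested. There were 12 keratins called higher, where 12.5% of all genes tested were called higher, and 2 called lower, where 11.1% were called lower. Without WT replicate C, 1239 of all genes were called lower in place of 1876, and the keratins called lower were still 2. KO replicate A stood apart from the other KO libraries in several keratins of low level; without it 11 keratins were called higher and 2 lower. The 14 not called had log2 fold changes, KO over WT, of -0.24 to 1.81. The median log2 fold change of the 28 was 0.38, and that of all genes tested was -0.001. Levels did not overlap between genotypes for 18 of the 28, against 39.3% of all genes tested. Of the 28, 22 exceeded 0.274 CPM, which is 10 counts in the median library, in all 6 libraries. Krt20 and Krt79 did so in the 3 KO libraries only and so passed the filter through KO.

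**Figure D1:**
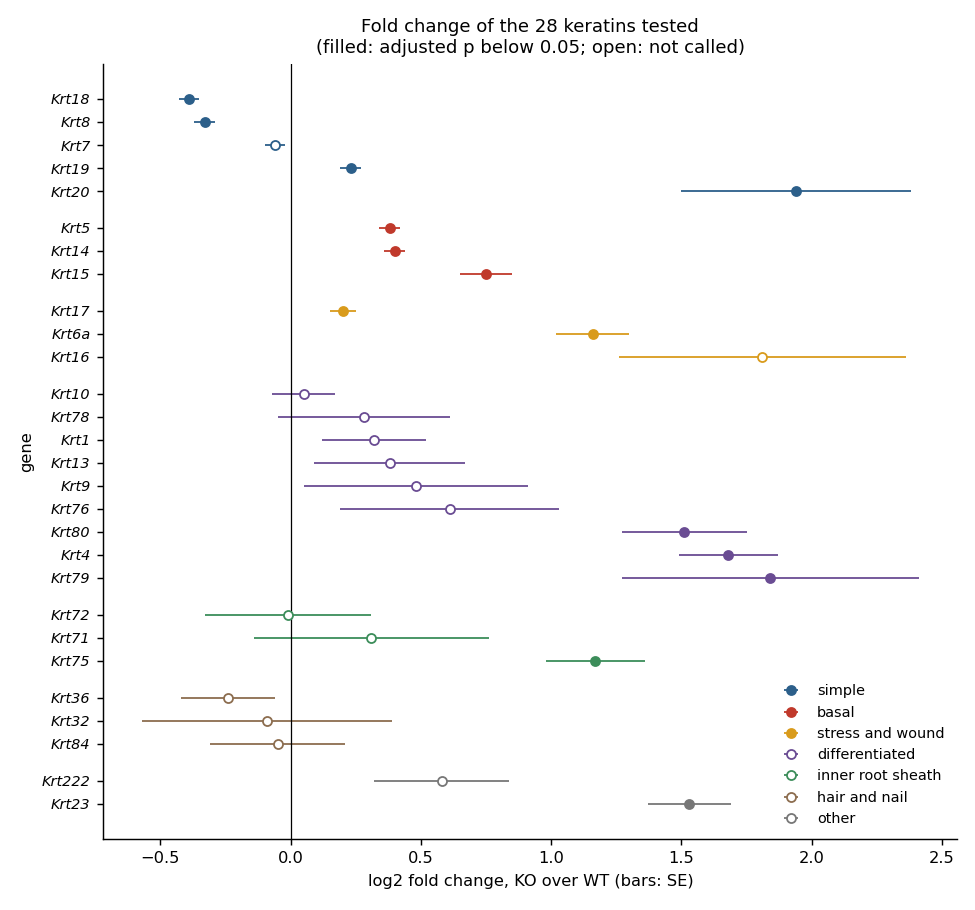
Log2 fold change, KO over WT, of the 28 tested keratins by class, with bars showing the SE; filled points passed an adjusted p of 0.05 and open points did not. Krt18 and Krt8 lie below 0, the 3 basal keratins lie above it, and the largest changes, with the widest bars, belong to keratins of low level.

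The simple keratins Krt8 and Krt18, partners in simple epithelia, were lower in every KO library than in any WT library. Krt8 (ENSMUSG00000049382.9, chromosome 15, 101996698 to 102004482, minus strand, GRCm38) had 1328, 1308 and 1275 CPM in the KO replicates A, B and C, against 1676, 1595 and 1632 CPM in the WT replicates A, B and C. Krt18 (ENSMUSG00000023043.6, chromosome 15, 102028180 to 102032027, plus strand) had 1636, 1580 and 1598 CPM in the KO replicates and 2159, 2051 and 2084 CPM in the WT replicates. Libraries of each genotype lay close together and the genotypes were apart in both genes. Krt8 was 1.25-fold lower in KO (log2 fold change -0.33, SE 0.04, edgeR adjusted p = 9.94e-06) and Krt18 was 1.31-fold lower (-0.39, SE 0.04, edgeR adjusted p = 2.21e-06). No other keratin was called lower by edgeR. The summed level of cTEC markers was lower in KO as well, and its part in these values was not tested.

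The other simple keratins did not follow this pair. Krt19, a type I chain that lacks most of the tail domain, rose: it had 194, 206 and 203 CPM in the KO replicates and 177, 165 and 171 CPM in the WT replicates, with no overlap. Its change was small, 1.17-fold (log2 fold change 0.23, SE 0.04, edgeR adjusted p = 3.91e-04). Krt7, the type II chain of ducts and other simple epithelia, had 571 ± 14.8 CPM in KO libraries and 596 ± 18.3 CPM in WT libraries (SD, n = 3 each), and the genotypes overlapped (log2 fold change -0.06, SE 0.04, edgeR adjusted p = 0.241). Krt20, a type I chain of gut epithelium and the urothelial surface, was near 0 in WT and rose. It had 31, 18 and 17 counts in the KO replicates and 6, 6 and 5 counts in the WT replicates, so that every KO library was above every WT library. The fold change was 3.85 (log2 fold change 1.94, SE 0.44, edgeR adjusted p = 0.00419). Krt20 passed the low count filter through KO, the group where it was high, so its call is read with that limit.

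All 3 basal keratins rose, where 12.5% of all genes tested were called higher. Krt5 (ENSMUSG00000061527.6, chromosome 15, 101707070 to 101712898, minus strand) had 3282, 3167 and 3222 CPM in the KO replicates and 2632, 2335 and 2475 CPM in the WT replicates. Its partner Krt14 (ENSMUSG00000045545.8, chromosome 11, 100203162 to 100207548, minus strand) had 771, 842 and 842 CPM in the KO replicates and 655, 593 and 617 CPM in the WT replicates. Neither gene overlapped between genotypes, and the changes of the partners were close: 1.3-fold for Krt5 (log2 fold change 0.38, SE 0.04, edgeR adjusted p = 1.29e-05) and 1.32-fold for Krt14 (0.40, SE 0.04, edgeR adjusted p = 1.67e-05). Krt15, a type I keratin of basal cells, had 26.8, 28.7 and 35.7 CPM in the KO replicates and 18.8, 18.2 and 17.2 CPM in the WT replicates. It rose more than the pair, 1.68-fold (log2 fold change 0.75, SE 0.10, edgeR adjusted p = 3.27e-04), with KO replicate C highest; the difference between members was not tested. The 12 medullary markers outside the family, all detected in both genotypes, summed to 1869 to 2234 CPM in KO libraries and 1514 to 1732 CPM in WT libraries. Of these, 5 rose and 7 were not called, where 12.5% of all genes tested were called higher. Their part in the basal keratin values was not tested.

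**Figure D2:**
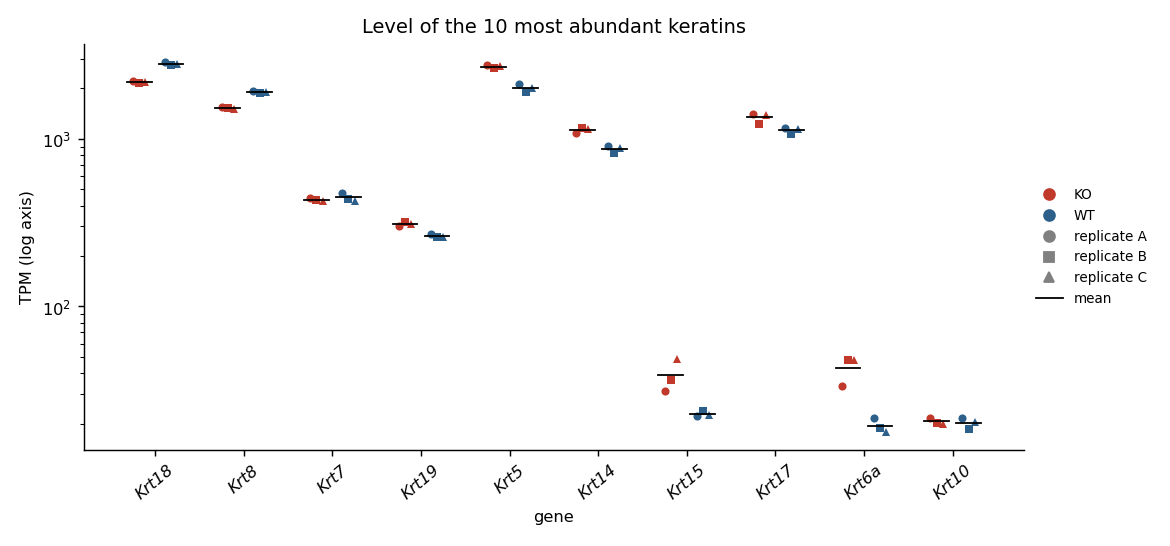
TPM (log axis) of the 10 most abundant keratins in each library, with KO in red left of WT in blue, a marker shape per replicate and a line at the mean. Krt18 and Krt8 are lower in all 3 KO libraries, and Krt5, Krt14, Krt15, Krt17, Krt19 and Krt6a are higher, while Krt7 and Krt10 overlap.

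Because levels of different genes can be compared only per length, the make-up of keratin mRNA was described in TPM, which are scaled for transcript length and library size, with no test. In KO, Krt5 was the most abundant keratin (2697 ± 58.6 TPM) and Krt18 followed (2180 ± 39.3 TPM). In WT, Krt18 was first (2805 ± 48.2 TPM) and Krt5 followed (2011 ± 109 TPM; SD, n = 3 each). The ranks of this pair were thus exchanged, while Krt8, Krt17, Krt14, Krt7 and Krt19 took the next places in the same order in both genotypes. These 7 genes made up 98.5% ± 0.177 of keratin TPM in KO and 99.1% ± 0.013 in WT.

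The sum of Krt5 and Krt14 over that of Krt8 and Krt18 was 1.01, 1.03 and 1.05 in the KO replicates and 0.633, 0.589 and 0.615 in the WT replicates. Basal keratins were thus about level with the simple pair in KO libraries and well under it in WT libraries. Simple keratins made up 45.6% ± 0.598 of keratin TPM in KO and 57.0% ± 0.81 in WT, and basal keratins 39.6% ± 0.497 in KO and 30.5% ± 0.624 in WT. Differentiated keratins were a small part of the total, 0.371% ± 0.0125 in KO and 0.286% ± 0.0166 in WT. Within pairs the ratios moved little: Krt14 over Krt5 was 0.42 ± 0.0243 in KO and 0.433 ± 0.00592 in WT, with overlap, and Krt18 over Krt8 was 1.42 ± 0.0181 in KO and 1.48 ± 0.0085 in WT, without overlap.

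Total keratin mRNA differed less than its make-up. All members summed to 9878, 9591 and 9830 TPM in the KO replicates and 9800, 9228 and 9493 TPM in the WT replicates, and these ranges overlapped. Type I chains summed to 5041 ± 92.9 TPM in KO and 5118 ± 136 TPM in WT, also with overlap. Type II chains summed to 4725 ± 69.8 TPM in KO and 4389 ± 153 TPM in WT, with every KO library above every WT library. The ratio of type I to type II was 1.06, 1.06 and 1.08 in the KO replicates and 1.15, 1.17 and 1.18 in the WT replicates, so type I exceeded type II in all 6 libraries and by less in KO. Krt8 and its pseudogene Krt8-ps share sequence: 26.9% of the 50-base stretches of the Krt8 transcript occur in it, and levels of Krt8 depend on how such reads were assigned.

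**Figure D3:**
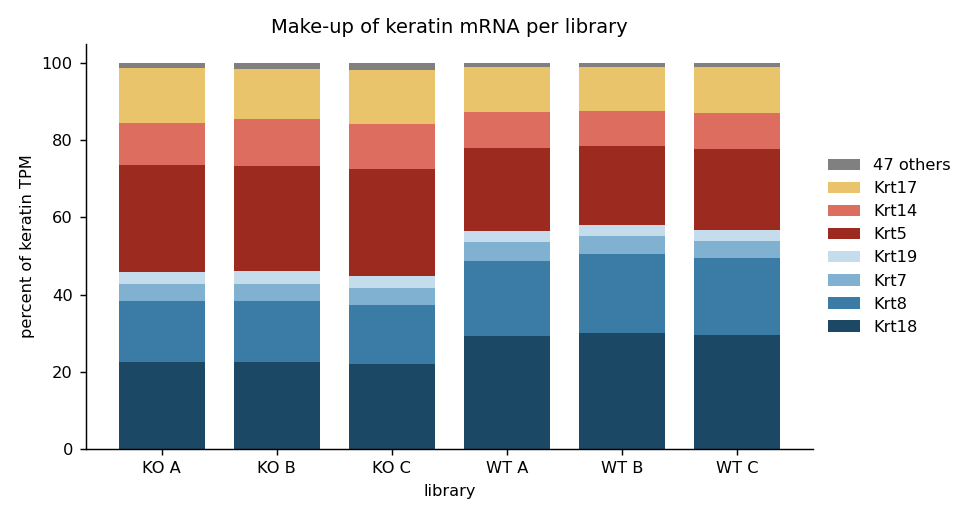
Share of keratin TPM taken by each of the 7 most abundant keratins in each library, KO left of WT, with the remaining members in grey. Simple keratins, drawn in blue, take 44.9 to 46.1% in KO libraries and 56.4 to 57.9% in WT libraries, and Krt5 is the largest single part in KO.

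Among stress and wound keratins, which skin makes after injury, 2 of the 3 tested rose, where 12.5% of all genes tested were called higher. Krt17, a type I chain, had 1087, 953 and 1092 CPM in the KO replicates and 925, 859 and 934 CPM in the WT replicates. The genotypes did not overlap but came close, and the rise was 1.15-fold (log2 fold change 0.20, SE 0.05, edgeR adjusted p = 0.0164). The call was lost when replicate A or C of KO or replicate B of WT was left out (edgeR adjusted p = 0.0516, 0.0753 and 0.072). Krt6a, a type II chain, had 23.3, 31.6 and 31.8 CPM in the KO replicates and 14.1, 13.6 and 11.2 CPM in the WT replicates, and rose 2.23-fold (log2 fold change 1.16, SE 0.14, edgeR adjusted p = 9.28e-04). Of its 50-base stretches 39.9% also occur in Krt6b, which had at most 10 counts in a library, so part of the Krt6a reads cannot be placed uniquely. RSEM expected counts, which share such reads between genes, gave a log2 fold change of 1.12 (edgeR adjusted p = 0.0129).

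Krt16, the type I partner of Krt6a in injured skin, was not called (log2 fold change 1.81, SE 0.55, edgeR adjusted p = 0.0529). It had 129, 48 and 47 counts in the KO replicates and 8, 33 and 23 counts in the WT replicates. KO replicate A was far above the others. Without it the log2 fold change was 1.19 and the gene was called (edgeR adjusted p = 0.0416), as it was without KO replicate B or WT replicate B (0.0391 and 0.0372) and with DESeq2 on all libraries (adjusted p = 3.80e-04). Of the 50-base stretches of Krt16, 37.6% occur in other transcripts, and 14.4% of those of Krt14 do.

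Of 9 differentiated keratins tested, 3 rose and 6 were not called. The 33.3% called were all rises, beside 12.5% of all genes tested called higher and 23.6% called in either direction. With so few genes, this count is not read as a result about the class. All 9 log2 fold changes were above 0, with a median of 0.48, where the median of all genes tested was -0.001. Krt79, which is among the 9 and among the 3 that rose, passed the low count filter through KO, where it was high. The counts and the median of this class are read with that limit. The 13 listed markers of keratinocyte-like medullary cells outside the family summed to 136, 188 and 159 CPM in the KO replicates and 71.8, 76.5 and 70.8 CPM in the WT replicates. None of the 13 was at 0 in all libraries, 5 were under 1 CPM in every library, and their part in the values below was not tested. Krt4 (ENSMUSG00000059668.5, chromosome 15, 101918535 to 101924735, minus strand), the type II chain of mucosal suprabasal cells, had 198, 206 and 184 counts in the KO replicates and 47, 50 and 89 counts in the WT replicates. The 3 KO libraries agreed closely, and WT replicate C was above the other WT libraries and well under KO. The rise was 3.22-fold (log2 fold change 1.68, SE 0.19, edgeR adjusted p = 1.14e-05). Krt13, its type I partner in mucosa, had 1.59 ± 0.556 CPM in KO libraries and 1.21 ± 0.359 CPM in WT libraries (SD, n = 3 each), overlapped between genotypes and was not called (log2 fold change 0.38, SE 0.29, edgeR adjusted p = 0.383).

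Krt80, a type II chain found in several differentiating epithelia, had 3.93, 5.07 and 7.87 CPM in the KO replicates and 2.26, 1.87 and 1.79 CPM in the WT replicates. KO libraries differed among themselves, and the lowest was above every WT library; the rise was 2.85-fold (log2 fold change 1.51, SE 0.24, edgeR adjusted p = 0.00111). Krt79, a type II chain of hair follicle openings, had 46, 13 and 13 counts in the KO replicates and 3, 7 and 10 counts in the WT replicates. Like Krt20, this gene passed the low count filter through KO. Its call (log2 fold change 1.84, SE 0.57, edgeR adjusted p = 0.0326) was lost without KO replicate A, where the log2 fold change was 1.0 (edgeR adjusted p = 0.24). It was also lost without WT replicate A, B or C (edgeR adjusted p = 0.115, 0.0963 and 0.056), where the log2 fold changes were 1.53, 1.89 and 2.19.

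The epidermal pair Krt1 and Krt10 was not called. Krt10 had 9.91 ± 1.7 CPM in KO libraries and 9.58 ± 0.51 CPM in WT libraries (SD, n = 3 each; log2 fold change 0.05, SE 0.12, edgeR adjusted p = 0.803). Krt1 had 2.14 ± 0.22 CPM in KO libraries and 1.71 ± 0.176 CPM in WT libraries (log2 fold change 0.32, SE 0.20, edgeR adjusted p = 0.269), with no overlap. Krt9, the keratin of palm and sole skin, and Krt76 and Krt78 had log2 fold changes of 0.48, 0.61 and 0.28 with SEs of 0.43, 0.42 and 0.33. A change of the size seen in Krt5 would be within 1 SE of 0 for Krt9 and Krt76, so it was not detectable with these libraries.

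**Figure D4:**
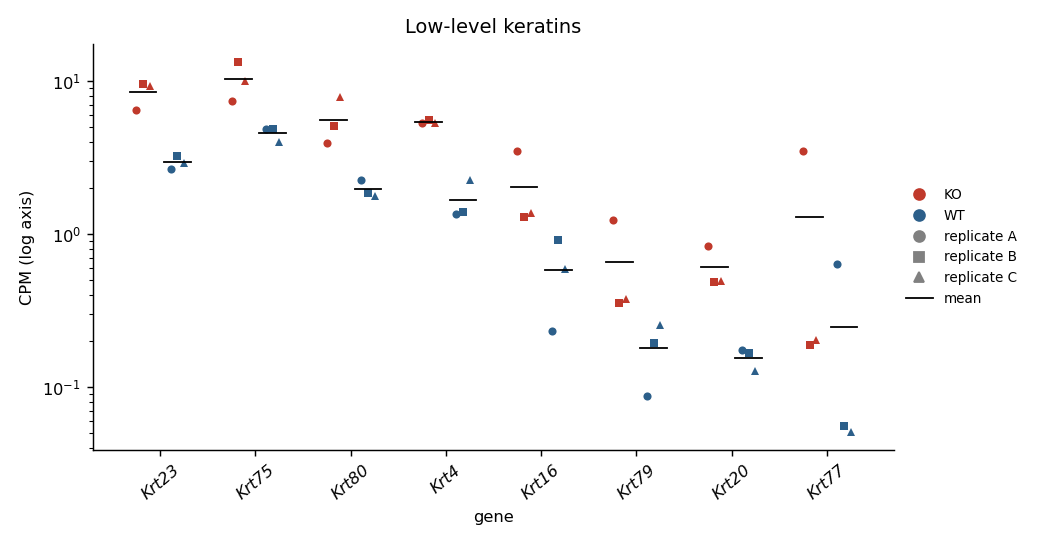
CPM (log axis) of 8 keratins of low level in each library, with KO in red left of WT in blue, a marker shape per replicate and a line at the mean. All but Krt77 separate by genotype in all libraries, and KO replicate A stands above the other KO libraries in Krt16, Krt79, Krt77 and Krt20.

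Keratins of hair and its sheaths were mostly near the limit of detection. Krt75, a type II chain of the companion layer of the hair follicle, was the only one called. Those tested were 3 inner root sheath and 3 hair and nail keratins, and 23.6% of all genes tested were called. So few genes give no result about these classes. Krt75 had 7.49, 13.3 and 10.1 CPM in the KO replicates and 4.85, 4.85 and 4.04 CPM in the WT replicates. Every KO library was above every WT library, and the rise was 2.25-fold (log2 fold change 1.17, SE 0.19, edgeR adjusted p = 0.00202). The other inner root sheath keratins tested, Krt71 and Krt72, had at most 1.1 CPM in any library and were not called. Of 15 hair and nail keratins 3 were tested, Krt36, Krt32 and Krt84, with log2 fold changes of -0.24, -0.09 and -0.05. The edgeR test called 0 of them (0 at an unadjusted p under 0.05, and 0 with DESeq2).

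Of the remaining keratins, Krt23, a type I chain reported in some secretory epithelia, had 6.49, 9.66 and 9.36 CPM in the KO replicates and 2.67, 3.26 and 2.92 CPM in the WT replicates. KO replicate A was the lowest KO library and still above every WT library. The rise was 2.88-fold (log2 fold change 1.53, SE 0.16, edgeR adjusted p = 8.38e-06). Krt222 had 1.29 ± 0.0859 CPM in KO libraries and 0.865 ± 0.185 CPM in WT libraries (SD, n = 3 each), without overlap, and was not called (log2 fold change 0.58, SE 0.26, edgeR adjusted p = 0.123).

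The 26 members that did not pass the filter were at or near 0. Krt27 had 0 counts in all 6 libraries; 3 counts, the limit that a count of 0 allows, are 0.0768 to 0.0878 CPM per library, for counting error only. Of the 26, 20 stayed under 10 counts in every library. Krt77, a type II chain of epidermis and sweat glands, stood out: it had 130, 7 and 7 counts in the KO replicates and 22, 2 and 2 counts in the WT replicates. Replicate A was the highest library of each genotype, and the genotypes overlapped. The other members outside the filter had at most 15 counts in a library. Tested without the filter, 25 of the 26 gave a value and edgeR called 0 of them (0 at an unadjusted p under 0.05; DESeq2 was not run on them).

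The family lies in 2 clusters of 27 genes each, on chromosome 11 (99232761 to 100269871, GRCm38) and chromosome 15 (101347444 to 102032027). The first holds type I chains and the second type II chains with Krt18 at its end. Called rises were spread over both clusters, 6 of 14 type I and 6 of 14 type II keratins tested. Over all genes tested, 12.5% were called higher. The rises include Krt20, of type I, and Krt79, of type II, which passed the filter through KO. The 2 keratins that fell are neighbours within the family, lie 23.7 kb apart and are transcribed away from each other. On their other side lie Krt78, which was not called, and Krt79 and Krt4, which rose. Krt5 and Krt6a, 12.8 kb apart, rose 1.3-fold and 2.23-fold.

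**Figure D5:**
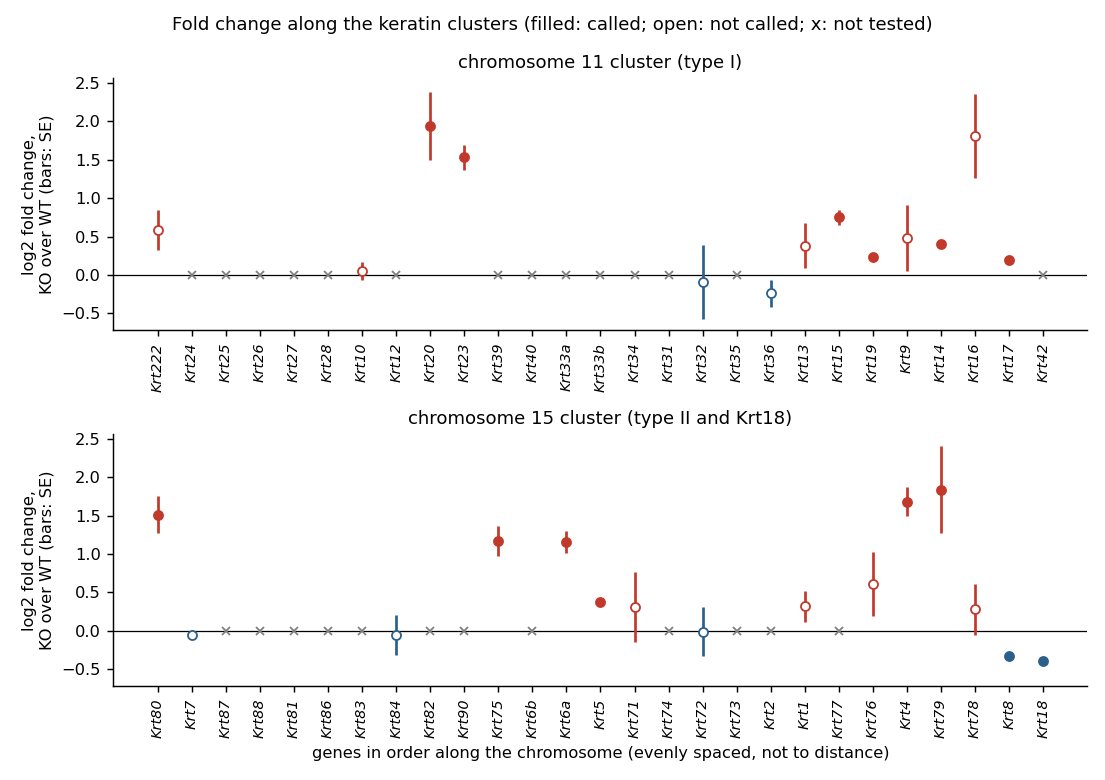
Log2 fold change, KO over WT, with SE bars, of keratins in their order along the chromosome 11 cluster (top) and the chromosome 15 cluster (bottom); filled points were called, open points were not, and grey crosses mark genes not tested. Krt8 and Krt18 sit together at the end of the chromosome 15 cluster as the only called falls, and rises occur along both clusters.

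Promoter windows, 250 bases before to 50 after the start that RefSeq gives (GRCm38.p6), were found for 36 keratins, 8 of them called. Windows are shown for the simple pair that fell together, for Krt5, which rose, and for Krt20 and Krt23, whose rises were the largest among keratins with a window that stayed called without each library in turn. They read 5′ to 3′ on the strand of the gene: Krt8 at chr15:102004293-102004592 and Krt5 at chr15:101712856-101713155, both minus strand; Krt18 at chr15:102027966-102028265, plus strand; Krt20 at chr11:99438104-99438403 and Krt23 at chr11:99493071-99493370, both minus strand. Capitals mark matches to any of 4 motifs searched on both strands: the TATA box (TATAAA), AP-1 (TGANTCA), the GC box (GGGCGG) and AP-2 (GCCNNNGGC).
Krt8: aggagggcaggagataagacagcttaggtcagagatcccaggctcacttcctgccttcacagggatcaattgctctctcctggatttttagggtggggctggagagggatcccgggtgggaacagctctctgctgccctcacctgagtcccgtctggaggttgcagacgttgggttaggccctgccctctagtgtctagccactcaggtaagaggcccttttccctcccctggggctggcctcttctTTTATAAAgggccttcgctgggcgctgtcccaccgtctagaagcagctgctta
Krt18: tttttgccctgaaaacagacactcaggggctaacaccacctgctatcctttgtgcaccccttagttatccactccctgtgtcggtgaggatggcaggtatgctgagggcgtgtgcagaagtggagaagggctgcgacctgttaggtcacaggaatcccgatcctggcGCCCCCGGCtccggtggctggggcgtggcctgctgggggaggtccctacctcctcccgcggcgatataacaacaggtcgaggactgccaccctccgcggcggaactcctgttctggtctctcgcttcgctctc
Krt5: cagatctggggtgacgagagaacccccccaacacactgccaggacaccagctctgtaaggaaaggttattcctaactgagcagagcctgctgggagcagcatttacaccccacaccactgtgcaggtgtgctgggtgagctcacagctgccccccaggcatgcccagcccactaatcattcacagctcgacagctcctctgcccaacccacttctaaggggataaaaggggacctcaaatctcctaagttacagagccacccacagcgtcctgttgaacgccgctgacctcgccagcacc
Krt20: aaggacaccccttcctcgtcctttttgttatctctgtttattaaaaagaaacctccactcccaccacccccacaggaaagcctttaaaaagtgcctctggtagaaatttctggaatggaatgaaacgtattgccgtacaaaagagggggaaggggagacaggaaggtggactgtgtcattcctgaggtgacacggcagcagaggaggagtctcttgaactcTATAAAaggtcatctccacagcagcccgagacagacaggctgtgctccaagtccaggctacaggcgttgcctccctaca
Krt23: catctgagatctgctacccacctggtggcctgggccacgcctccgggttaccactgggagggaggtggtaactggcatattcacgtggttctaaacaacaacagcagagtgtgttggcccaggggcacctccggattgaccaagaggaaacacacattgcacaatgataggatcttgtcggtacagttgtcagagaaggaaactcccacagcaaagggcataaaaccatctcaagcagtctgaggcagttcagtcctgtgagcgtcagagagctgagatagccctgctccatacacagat

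The start in this table lies 140 bases from the GENCODE start for Krt8, 36 for Krt18, 7 for Krt5, 3 for Krt20 and 17 for Krt23. In Krt8, TATAAA began 1 base before the RefSeq start and overlapped a match on the opposite strand; this place is inside the Krt8 gene as GENCODE draws it. In Krt20 it began 29 bases before the start, while the windows of Krt18, Krt5 and Krt23 did not hold these letters. Krt18 held an AP-2 match 83 bases before the start, and Krt5 and Krt23 held no match to any of the 4. Over the family, 19 of 36 keratins (52.8%) held TATAAA, against 13.6% of 32851 windows of all genes, and 2 of 36 (5.6%) held the GC box, against 35.7% of all windows. AP-1 occurred in 1 of 36 (2.8%, against 7.8%) and AP-2 in 7 of 36 (19.4%, against 16.6%). A keratin counted once if any window of it matched, while the shares of all genes are per window, so the measures differ. Matches counted on either strand and anywhere in the window, as in Krt72, where TATAAA lay 203 bases before the start. Among the 8 called keratins with a window, only Krt8 and Krt20 held TATAAA. The other called keratins had no window to search. The simple pair that moved together shared no match to a motif in these windows.

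Of 17 tested linkers and partners, which tie keratin filaments to junctions and to other proteins, 2 rose and 2 fell, with a median log2 fold change of 0.02. This count of 4 is near the share over all genes tested, of which 23.6% were called, and is no result about linkers. Pkp2, a desmosomal plakophilin, rose 1.67-fold, and Sfn, a 14-3-3 protein that binds keratins, rose 1.09-fold. Trim29 and Fam83h, which organises keratin filaments, fell 1.11-fold and 1.1-fold (edgeR adjusted p = 0.0064, 0.0229, 0.0118 and 0.0206, in the order named). Dsp, which anchors keratins at desmosomes, had 2549 ± 103 CPM in KO libraries and 2574 ± 76.5 CPM in WT libraries (SD, n = 3 each). Plec, which anchors them at hemidesmosomes, had 766 ± 52.4 CPM in KO libraries and 773 ± 44.3 CPM in WT libraries, and neither gene was called.

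Intermediate filament genes outside the family changed in both directions, with 5 of 14 tested higher and 4 lower, beside 12.5% and 11.1% of all genes tested. Vim, the filament of mesenchymal cells, rose 1.7-fold, Nes 1.62-fold and Des 1.5-fold, while Synm fell 1.26-fold and the neurofilament gene Nefm 3.29-fold. Fibroblast and pericyte markers, which such cells express, summed to 1230 to 1331 CPM in KO libraries and 858 to 965 CPM in WT libraries. Most of these sums was Dcn, with means of 778 CPM in KO and 607 CPM in WT. Of the 9 markers tested 6 were higher, and Postn, Pdgfrb and Pdgfra were not called. The part of these markers in the Vim and Des values was not tested. Among 17 transcription factors of simple and stratified epithelium 11 rose, beside the same shares over all genes, with a median log2 fold change of 0.46. The 1 that fell was Foxn1, which is also among the cTEC markers. The list was chosen with earlier results of these data known, so its count is not independent of them. Ehf, Zfp750, Grhl1 and Grhl3, factors of differentiating epithelium, rose 1.99-fold, 1.93-fold, 1.5-fold and 2.64-fold (edgeR adjusted p = 2.38e-08, 4.28e-07, 4.17e-06 and 1.10e-05). Trp63, the master regulator of basal epithelium, was not called, with 775 ± 40.6 CPM in KO libraries and 831 ± 3.92 CPM in WT libraries (edgeR adjusted p = 0.0761).

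Markers of other cells of the thymus differed by list in how many were called, where 12.5% of all genes tested were higher. Of the 5 medullary markers called among 12, those with the lowest p were Tnfrsf11a, Cldn3 and Cd80, at 1.78-fold, 2.46-fold and 2.88-fold higher. Aire, which defines mature medullary cells, had 6.99 ± 2.45 CPM in KO libraries and 3.05 ± 1.21 CPM in WT libraries and was not called (edgeR adjusted p = 0.0669). Of 9 tested markers of keratinocyte-like medullary cells 7 rose, with Dmkn, Grhl3 (also among the transcription factors) and Sprr1a 2.22-fold, 2.64-fold and 1.78-fold higher. Lor, a main protein of the cornified layer, was at 0.526 ± 0.0522 CPM in KO libraries and 0.456 ± 0.179 CPM in WT libraries and was not called.

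Beside the 12.5% of all genes tested that were called higher, 8 of 12 tuft cell markers rose. The 12 summed to 183 to 245 CPM in KO libraries and 119 to 128 CPM in WT libraries. Of 11 markers of dendritic cells and macrophages 8 rose, with sums of 67.9 to 75.1 CPM in KO libraries and 35.2 to 39.1 CPM in WT libraries. Of 11 thymocyte markers tested, Cd28 rose. Of 6 endothelial markers tested, edgeR called 0 (0 at an unadjusted p under 0.05, and 0 with DESeq2). KO replicate A, where Krt77, Krt79, Krt16 and Krt20 were highest, had the highest sum of thymocyte markers of the 6 libraries, 75.7 CPM beside 37.6 to 48.4 CPM elsewhere. It was also highest for endothelial markers, with 46.5 CPM beside 12.8 to 34.7 CPM elsewhere, for tuft cell markers, with 245 CPM beside 119 to 188 CPM, and for medullary markers, with 2234 CPM beside 1514 to 1907 CPM. For keratinocyte-like medullary markers KO replicate A was the lowest KO library, with 136 CPM beside 188 and 159 CPM in B and C. For fibroblast and pericyte markers it was also the lowest KO library, with 1230 CPM beside 1331 and 1281 CPM. Dendritic cell and macrophage markers were highest in KO replicate C. The part of any of these cells in the keratin values was not tested.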

How the data were processed

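Members, classes and gene lists were chosen with earlier results of these data known. RNA was selected for poly(A) and made into stranded libraries, per the labels' protocols. Reads were handled with bcl2fastq 2.17, STAR 2.5.1b and RSEM 1.2.28, per the submitters' processing notes, which name the human build GRCh38 although the identifiers are mouse; the build aligned to is therefore uncertain. The read counts deposited by the authors are raw, 1 value per gene and strand setting, and the opposite-strand column was used. Rows that name no gene held 18.43% to 19.81% of reads and were left out. The authors' deposited RSEM expected counts are estimated reads, rounded here, and their TPM values are scaled for length. The authors' effective lengths from RSEM served an alternative only. Symbols and positions came from GENCODE M21 (GRCm38) by identifier, version dropped, for 99.56% of identifiers.

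Genes passing filterByExpr were compared with edgeR 4.0.16 (robust quasi-likelihood, TMM, R 4.3.3) between 3 KO and 3 WT libraries. The SE was derived from the F statistic and is approximate. CPM are counts scaled by TMM library size; marker sums use plain gene counts. Replicates of a genotype differed by 4.33 to 7.48 times counting noise, so none was a repeat deposit. The fit was tested on simulated data. Named genes were Krt8, Krt18, Krt5, Krt14 and every called keratin in full, and other keratins by level. Each list gave up to 4 called genes by p (3 per cell type), or else the 2 of highest CPM. Dsp, Plec, Trp63, Vim, Foxn1, Aire, Lor, Ccl21a, Postn, Pdgfrb and Pdgfra were added after their values were seen. Sequences are from RefSeq. Alternatives were upper quartile and RLE scaling, DESeq2 1.42.0, other filters (none, or a mean of 5 CPM), expected counts, limma 3.58.1 on log2(TPM + 1) and log2(TPM + 0.1), unstranded counts, the replicate block and leaving out each library. Figures used matplotlib 3.10.9.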

Additional observations from a re-analysis of the deposited data

How the results depend on the processing

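All 28 tested keratins were refitted under 16 alternatives, as far as each tested them. No called keratin changed direction; 12 of the 14 calls held under all alternatives that tested the gene, with Krt17 and Krt79 as exceptions. Krt79 was also not called with unstranded counts or with limma on log2(TPM + 1) or log2(TPM + 0.1) (adjusted p = 0.0659, 0.184 and 0.129). Krt16 was called with no low count filter (edgeR adjusted p = 2.84e-08) and in the cases given above. It was not called under the other alternatives, among them the replicate block and expected counts (edgeR adjusted p = 0.197 and 0.107). Dropping the filter lowered p for some other keratins too, as for Krt14 from 1.67e-05 to 7.76e-23 (edgeR adjusted p). For others it raised p, as for Krt1 from 0.269 to 0.467 (edgeR adjusted p). Keratins called higher numbered 11 to 13 over left-out libraries and keratins called lower 2 in each. Across all genes, limma on log2(TPM + 1) called 1295 higher and 793 lower, and on log2(TPM + 0.1) 1326 and 800, in place of 2113 and 1876. Leaving out a library gave 1476 to 1917 higher and 1239 to 1744 lower. From read counts per effective length, in place of TPM, simple keratins made up 55.9% in WT, basal keratins 40.7% in KO and 31.8% in WT, and type I over type II was 1.11 in KO and 1.23 in WT; the cause was not tested. Same-lettered KO and WT libraries had correlated deviations of -0.016, 0.082 and -0.034, so the letters were not taken as pairs. With the replicate block 12 keratins were called higher and 2 lower, and 2191 and 1906 of all genes; it changed no keratin call. SEs reached 0.57 among keratins under about 1 CPM; depth and spread between replicates were not separated.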
